A study of Homo sapiens with 4 samples.

Results

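DHX36 is a DEAH-box helicase that binds and unfolds G-quadruplexes, four-stranded folds that form in guanine-rich RNA and DNA. Its contacts with mRNA were mapped by PAR-CLIP in HEK293, a human embryonic kidney cell line. The genes described here are those whose crosslinked reads fell almost entirely in the coding sequence (CDS) in the PAR-CLIP of the helicase-dead protein. They are the rows of the deposited gene table with at least 200 crosslinked FH-DHX36-E335A reads of which at least 80% were annotated as CDS. The genes were thus chosen by their FH-DHX36-E335A read counts, and those counts are given as a description. The rule found 229 of the 5648 rows that reached 200 reads (4.05%), out of 26490 rows in all. The other 5419 rows that reached 200 reads served as the comparison.

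Cells carried a stably integrated, tetracycline-inducible transgene with a FLAG and HA tag (FH), induced with 500 ng/ml tetracycline for 15 h and crosslinked with UV light of 365 nm for 5 min. The FH-DHX36-E335A line expressed isoform 1 with the E335A change, which abolishes helicase activity, and the FH-DHX36 line expressed isoform 2 without it, each with 2 samples. Both lines therefore overexpressed a tagged protein, and isoform and mutation differed together, so that their contributions cannot be told apart. The gene table holds 1 set of values per line, so differences between the lines have no replicate check and no test, and the Wilson 95% intervals given for single genes cover counting error only. It holds 8752127 crosslinked reads for FH-DHX36-E335A and 2160413 for FH-DHX36, and the CDS took 16.9% and 28.4% of them. Only reads within called clusters are listed, so a 0 says that no cluster is listed, and the depth behind it differed 4.05-fold between the lines. Whether a cluster had to be found in both samples of a line to be listed is not stated.

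PAR-CLIP feeds cells 4-thiouridine, which crosslinks to bound protein under UV light and is then read as a T-to-C change in the sequenced fragment. A cluster is a group of overlapping reads with more such changes than chance would give. In a coding sequence the elongating ribosome passes over every site and unfolds RNA structure as it goes, whereas a site in the untranslated regions (UTRs) is met by the scanning small subunit or not at all. The CDS of an mRNA is its translated part, between the 5′UTR and the 3′UTR. Reads assigned to a gene but to none of the 5′UTR, CDS, 3′UTR or intron columns are called reads of another annotation below. They are taken to be further categories of the pipeline, such as start and stop codons or transcripts with no annotated CDS. The sources used here do not state what they are.

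Guanine-rich stretches of the coding sequences with the most reads are shown first, because G runs are a known target of DHX36. They are not the only one described. According to the paper, earlier work linked DHX36 to AU-rich elements, and the helicase-dead protein contacted A/U-rich sites besides G-rich ones. No A/U-rich pattern was searched for in these coding sequences. The pattern searched was at least 4 runs of at least 2 G separated by 1 to 7 nt, on the sense strand, in the CDS of the canonical transcript. Each match was extended over every further run that continued the pattern. Of the 6 genes with most FH-DHX36-E335A reads, 3 held an extended match of at most 30 nt. The match with most G in each is printed below, 5′ to 3′, with runs of at least 2 G in capitals. Coordinates are of GRCh37, and all 3 genes lie on the minus strand.
IRS4, chrX:107978299-107978320, exon 1: GGGcgcaGGtcaaGGagagcGG
DNAJC2, chr7:102957355-102957371, exon 13: GGtGGaGGtGGaaatGG
ATL2, chr2:38604337-38604358, exon 1: GGGGctgtGGcgccGGcgacGG
The IRS4 CDS of 3771 nt had 12 matches that did not overlap, that of ATL2 had 4 and that of DNAJC2 had 1. PTGES3 and LAMTOR5, the genes with most reads after IRS4, had no match in coding sequences of 483 and 276 nt. HIST4H4 had 1 match, which was longer than 30 nt once extended, as was that of ZNF561, although the windows printed for them hold at least 4 runs of the pattern. For PTGES3, LAMTOR5, HIST4H4 and ZNF561, the last of which is described below, the 30-nt window of 1 exon with most G is printed instead, a choice made after the values were seen.
PTGES3, chr12:57060020-57060049, exon 6: tgatgaacaacatGGGtGGtgatgaGGatg
LAMTOR5, chr1:110950212-110950241, exon 1: tGGaGGcgaccttGGagcagcacttGGaag
HIST4H4, chr12:14923984-14924013, exon 1: tGGGcgaGGtaaaGGtGGcaaGGGGctGGG
ZNF561, chr19:9728781-9728810, exon 3: aGGtagaaaGGatGGtGGaGGactacctGG
These windows hold 12 G in PTGES3 and LAMTOR5, 17 in HIST4H4 and 13 in ZNF561, again on the minus strand. The table gives no cluster positions, so whether any of these stretches was crosslinked is not known.

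Reads were concentrated on a few of the genes. The 229 genes held 244252 FH-DHX36-E335A reads, 2.79% of all reads in the table and 14.9% of all CDS reads. They ranged from 200 to 17911 reads with a median of 501, against 716 in the comparison rows. The 5 genes with most reads held 24.7% of the reads of the whole set and the 15 with most held 42.7%. Another 113 genes had under 500 reads. The CDS held 90.5% of the summed reads, the 3′UTR 4.0%, other annotation 3.83%, introns 0.900% and the 5′UTR 0.770%. These shares follow from the rule, as does the median CDS share of 90.4%, and 47 genes had no read outside the CDS. At the threshold, GFM2 (278 of 345 reads in the CDS), UBAP1 (720 of 895), ZNF267 (546 of 680), PRPSAP2 (322 of 402) and ISCA2 (177 of 221) lay just inside. ZNF573 (297 of 372), TUBA1A (237 of 297), ZDHHC6 (161 of 202), CHD1 (468 of 588) and EIF2A (159 of 200) lay just outside. All 10 shares lie close to the threshold.

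The CDS reads also dominated in the FH-DHX36 libraries, which the rule did not use. Of the 229 genes, 186 had at least 20 FH-DHX36 reads, and 159 of these (85.5%) had at least 80% of them in the CDS. The background over all rows with 200 FH-DHX36-E335A reads was 17.3% (767 of 4428), and over the comparison rows 14.3% (608 of 4242). The median CDS share was 100% in the selected genes and 0% in the comparison rows, where 2160 of the 4242 had no CDS read. On the selected genes, 130 had all FH-DHX36 reads in the CDS, 16 had between 50% and 80% there, 1 had between 0 and 50%, and 10 had none. Summed, the 109599 FH-DHX36 reads of the set were 94.2% CDS, 3.11% other annotation, 1.43% intron, 0.804% 3′UTR and 0.428% 5′UTR. The set took 5.07% of all FH-DHX36 reads and 16.8% of those in the CDS. These sums include 9 mitochondrially encoded genes, described below, which have no annotated UTR and held 24.5% of the FH-DHX36 reads of the set. Without these 9 genes, 151 of 177 (85.3%) had at least 80% of their FH-DHX36 reads in the CDS.

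**Figure D1:**
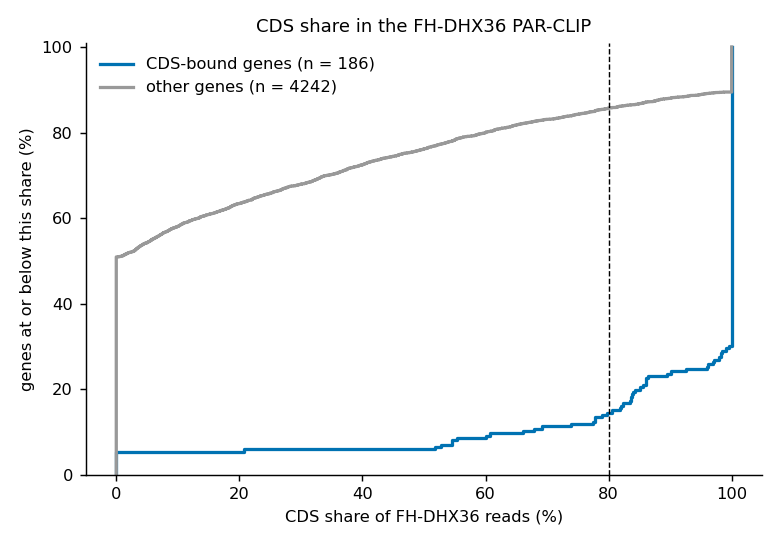
Cumulative share of genes (%, vertical axis) by the CDS share of their FH-DHX36 reads (%, horizontal axis), for genes with at least 20 FH-DHX36 reads; blue marks the 186 genes selected in FH-DHX36-E335A, grey the 4242 comparison rows, and the dashed line stands at 80%. The grey line starts with the 2160 rows without a CDS read, and the blue line stays low until the right edge, where 130 genes sit at 100%.

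The share in FH-DHX36 followed the share in FH-DHX36-E335A below the threshold too. Among comparison rows with under 20% CDS reads in FH-DHX36-E335A, 5.17% (146 of 2825) had at least 80% CDS in FH-DHX36. The figure was 20.8% (153 of 737) between 20% and 40%, 39.4% (169 of 429) between 40% and 60%, and 55.8% (140 of 251) between 60% and 80%. On the selected genes it was 79.6% (74 of 93) between 80% and 90%, 89.5% (51 of 57) between 90% and 100%, and 94.4% (34 of 36) where every FH-DHX36-E335A read was CDS. The share rose with each class. Depth moved it little, with 84.5% of the selected genes from 200 to under 500 FH-DHX36-E335A reads, 86.0% from 500 to under 1000 and 86.7% from 1000 reads.

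IRS4, an adaptor protein of insulin receptor signalling, had the most reads of the set in both lines. In FH-DHX36-E335A, 16505 of its 17911 reads were CDS (92.2%, interval 91.7 to 92.5), spread over 15 clusters, and the other 1406 carried another annotation. In FH-DHX36, all 9772 reads were CDS, in 23 clusters. No UTR cluster was listed on IRS4 in either line, although the CDS makes up only 57.5% of its canonical transcript. Scaled to the reads of each line, IRS4 stood 2.21-fold higher in FH-DHX36.

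The next genes by reads were PTGES3, LAMTOR5, DNAJC2 and ATL2, with 10476 to 10803 FH-DHX36-E335A reads each. PTGES3, which encodes the HSP90 co-chaperone p23, had 9792 of 10803 reads in the CDS, all in 1 cluster, and 829 in the 3′UTR. In FH-DHX36 it had 827 of 988 reads in the CDS (83.7%, interval 81.3 to 85.9), again in 1 cluster, and 111 in the 5′UTR. PTGES3 thus carried most of its reads in a single CDS cluster in each line. LAMTOR5, a subunit of the Ragulator complex at the lysosome, had 10036 of 10573 reads in 3 CDS clusters and in FH-DHX36 4277 of 4298 in 1. DNAJC2, a ribosome-associated J-domain chaperone, had 10243 of 10552 reads in 5 CDS clusters and in FH-DHX36 2250 of 2316 in 1. ATL2, an atlastin GTPase that shapes the endoplasmic reticulum, had 9575 of 10476 reads in 8 CDS clusters and in FH-DHX36 1368 of 1381 in 1. In all 3 the several FH-DHX36-E335A CDS clusters stood beside 1 FH-DHX36 CDS cluster.

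Most of the other 10 genes kept a CDS share of at least 80% in FH-DHX36. HIST4H4, a histone H4 gene, had 6746 of 6761 FH-DHX36-E335A reads in the CDS and 645 of 656 FH-DHX36 reads. MSH6, a DNA mismatch repair protein, had 5491 of 5928 in 22 CDS clusters, and all 1564 FH-DHX36 reads in 6. NUP155, a nuclear pore scaffold protein, had 4141 of 4511, and all 1123 FH-DHX36 reads were CDS. These genes kept their CDS share in both lines, as did the following. DDX47, a DEAD-box helicase of ribosome biogenesis, had 2968 of 3532 reads in the CDS with 443 more in the 3′UTR, and all 2539 FH-DHX36 reads in 1 CDS cluster. TCP1, a subunit of the cytosolic chaperonin, had 3900 of 4751, and all 384 FH-DHX36 reads were CDS. RNF40, a ubiquitin ligase for histone H2B, had 3099 of 3541 and in FH-DHX36 531 of 617. SWAP70, a guanine nucleotide exchange factor, had 2865 of 3329 and in FH-DHX36 592 of 706, so that both also stayed above 80%.

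The CDS share in FH-DHX36 was under 80% for 3 of the 15. NOP56, a core protein of box C/D small nucleolar ribonucleoproteins, had 305 of 551 FH-DHX36 reads in the CDS (55.4%, interval 51.2 to 59.5) and the other 246 of another annotation. BPTF, a subunit of a chromatin remodeling complex, had 309 of 468 in the CDS and 125 in introns. TPR, a protein of the nuclear pore basket, had 150 of 188 FH-DHX36 reads in the CDS, with an interval of 73.5 to 84.9 that includes the threshold. The NOP56 and BPTF intervals lay below it.

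**Figure D2:**
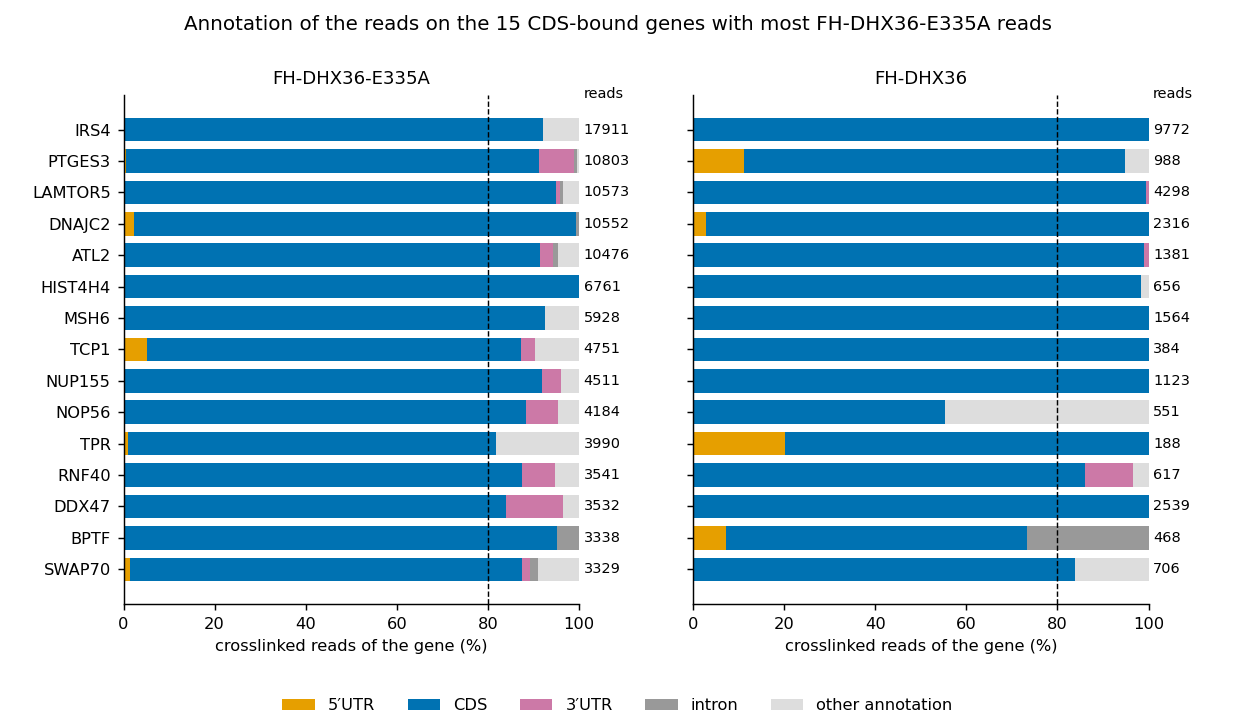
Crosslinked reads by annotation (% of the gene's reads, horizontal axis) for the 15 selected genes with most FH-DHX36-E335A reads, FH-DHX36-E335A on the left and FH-DHX36 on the right, with the number of reads at the end of each bar and a dashed line at 80%. The left bars pass the line by the rule, and on the right 12 of 15 pass it, with NOP56, TPR and BPTF short of it.

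A low CDS share in FH-DHX36 was rare on the selected genes and common over all rows. With at least 20 reads there, 11 of the 186 genes were under 50% CDS. Of all 4428 rows with as many reads, 2170 had no CDS read and 1069 had above 0 and under 50%. Among the 11 genes, 4 had most reads under another annotation, 5 in introns, 2 in the 5′UTR and none in the 3′UTR. MRPL20, a protein of the large mitochondrial ribosome subunit, had 2150 of 2450 FH-DHX36-E335A reads in the CDS, but its 424 FH-DHX36 reads were 372 of another annotation and 52 3′UTR. CKAP5, a microtubule polymerase, had 188 FH-DHX36 reads, all of another annotation. AGTPBP1 (133 reads), ANXA5 (98) and TDRD3 (90) had FH-DHX36 reads in introns only. These values rest on few clusters, since 8 of the 11 genes had 1 FH-DHX36 cluster and no gene had more than 3. RAB8A, a Rab GTPase, was the 1 gene with a CDS share between 0 and 50%, at 100 CDS and 380 intron reads.

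A further 37 genes (16.2%) had no FH-DHX36 read, against 19.5% of all rows with 200 FH-DHX36-E335A reads, and 6 had 1 to 19 reads. The 37 had a median of 332 FH-DHX36-E335A reads, against 528.5 in the genes with FH-DHX36 reads, and 26 of them had under 500. UQCRB, a subunit of respiratory complex III, was the deepest of them with 2496 FH-DHX36-E335A reads, followed by SLIRP, a mitochondrial RNA-binding protein, with 2403. ESPL1, the protease separase, had 1029, and GPS2, a corepressor subunit, had 926, all in 1 CDS cluster. Most of the genes without FH-DHX36 reads were thus among the shallow ones.

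The scaled number of reads differed widely between the lines. After division by the total of each line, the median ratio of FH-DHX36 to FH-DHX36-E335A was 0.889 on the selected genes and 0.530 on the comparison rows. It exceeded 1 in 106 genes (46.3%), against 30.4% of all rows with 200 FH-DHX36-E335A reads. FH-DHX36 had the larger CDS share over the whole table, and with each gene's CDS reads divided by the CDS reads of the line 33.2% of the selected genes exceeded 1. That share was 17.4% in the comparison rows. The ratio was at least 4 in 32 genes, against 4.02% of all rows. Of these 32, 9 were encoded in the mitochondrial genome and 23 in the nucleus.

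ZNF561, a C2H2 zinc finger gene, had the highest ratio of the nuclear-encoded genes. It had 778 FH-DHX36-E335A reads, 739 of them in 5 CDS clusters, and 6894 FH-DHX36 reads, all in 1 CDS cluster, a scaled ratio of 35.9. FBXO4, an F-box protein, went from 287 to 1109 reads (ratio 15.7), GTF3C1, a TFIIIC subunit, from 203 to 542 (10.8), and IMPDH2, the enzyme that commits to guanine nucleotide synthesis, from 661 to 1648 (10.1). MTHFD1L, a mitochondrial folate enzyme, went from 1050 to 2406 (9.28). All FH-DHX36 reads on these 5 genes were CDS, and on ZNF561, FBXO4 and MTHFD1L they formed 1 cluster. At the other end, UBAC1 had 1706 FH-DHX36-E335A and 20 FH-DHX36 reads (ratio 0.0475), CNOT1, the scaffold of the CCR4-NOT deadenylase, 1127 and 16 (0.0575), and UBAP1, a subunit of the ESCRT-I complex, 895 and 19 (0.0860). PRKAR2B, a regulatory subunit of protein kinase A, had 1440 and 31 (0.0872), and ANKRD17 had 875 and 19 (0.0880). The few FH-DHX36 reads were all CDS on UBAC1, CNOT1 and PRKAR2B, all 3′UTR on UBAP1 and all intron on ANKRD17.

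**Figure D3:**
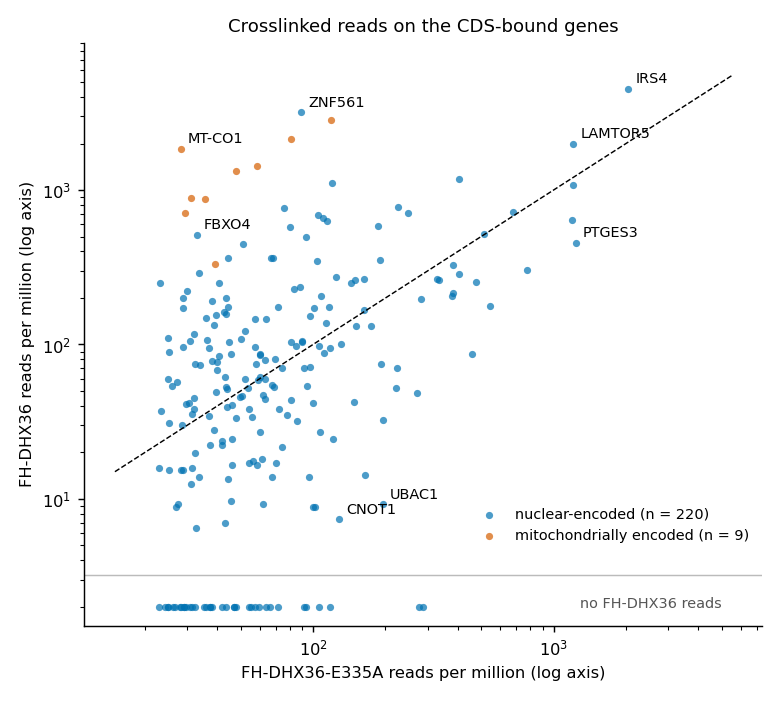
Reads scaled to 1000000 crosslinked reads of the line, FH-DHX36-E335A on the horizontal and FH-DHX36 on the vertical axis, both on log scales; each point is 1 selected gene, orange for the 9 mitochondrially encoded and blue for the 220 nuclear-encoded genes, the dashed line marks equal values, and the 37 genes without FH-DHX36 reads are set below the grey line. The orange points and ZNF561 lie far above the dashed line, while UBAC1 and CNOT1 lie far below it.

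The mitochondrial genome encodes 13 proteins, all of the respiratory chain and ATP synthase, and 9 of these genes met the rule. Their mRNAs have no UTR in the annotation, so that the CDS is 100% of the transcript and a high CDS share is given by the annotation. MT-ND4 had 1042 FH-DHX36-E335A reads, 858 of them CDS, and 6126 FH-DHX36 reads, 4523 of them CDS. MT-ND5 had 706 and 4624 reads, MT-CO2 510 and 3096, and MT-CYB 420 and 2883. MT-CO1 had the largest scaled ratio of the set, with 246 FH-DHX36-E335A and 4005 FH-DHX36 reads, a ratio of 66.0. MT-ND2 had the smallest of the 9 at 8.46, from 342 to 714 reads. Every one of the 9 had more reads in FH-DHX36 before any scaling, as 3.91% of all rows did, although that line had fewer reads in all. Together they held 1.68% of the FH-DHX36-E335A reads of the set and 24.5% of its FH-DHX36 reads, with a ratio of the sums of 26.4, against 1.4 for the sums of the nuclear-encoded genes.

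The other 4 mitochondrial protein-coding genes moved the same way without meeting the rule. MT-ND1 had 27 FH-DHX36-E335A and 4012 FH-DHX36 reads, MT-ND6 137 and 1633, and MT-ATP8 none and 303. MT-ND4L, whose reading frame overlaps that of MT-ND4, had 294 FH-DHX36-E335A reads, all of another annotation, and 1829 FH-DHX36 reads. MT-ATP8 likewise overlaps MT-ATP6, so neither MT-ND4L nor MT-ATP8 is fully separate from the selected genes. All 9 selected mitochondrial genes sat at an RNA abundance of 0 in the values behind the table (0.301% of all rows did), which makes their normalized values uninformative. Whether the difference between the lines reflects the amount of mitochondrial RNA in the preparations was not tested.

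The number of CDS clusters ranged from 1 to 28. The median was 4 in FH-DHX36-E335A, against 2 in the comparison rows, with 128 reads per CDS cluster against 48.3. These medians share the reads of the rule. In FH-DHX36 the genes with a CDS cluster held 113 reads per CDS cluster, against 51.6. Of 179 selected genes with a FH-DHX36 CDS cluster, 100 (55.9%) had just 1, near the 57.1% of all rows with such a cluster. In FH-DHX36-E335A, 22 genes (9.61%) had 1 CDS cluster, against 21.4% of all rows with 200 reads. PTGES3 led these with 9792 CDS reads, followed by RPL3, a large ribosomal subunit protein, with 1489 and GPS2 with 926. At the other end, 20 genes had at least 10 CDS clusters, where 3.61% of all rows did. FASN, the fatty acid synthase, had 28 CDS clusters with 1808 reads, MSH6 and CENPF, a centromere protein, had 22 each, and CNOT1 had 18. The same share of CDS reads was thus reached through 1 deep cluster on some genes and through many shallow ones on others.

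**Figure D4:**
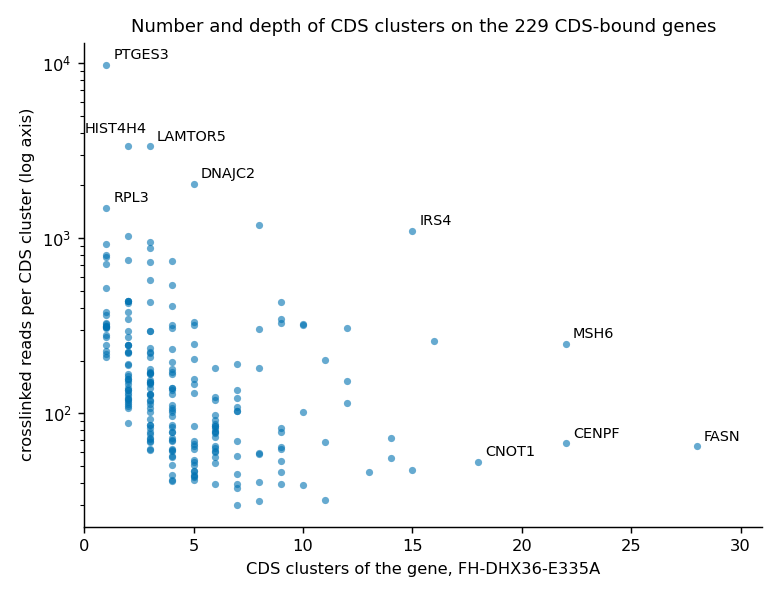
FH-DHX36-E335A CDS clusters per gene (horizontal axis) against crosslinked reads per CDS cluster (vertical axis, log scale) for the 229 selected genes, 1 point per gene. PTGES3 stands alone at 1 cluster of 9792 reads, IRS4 combines 15 clusters with over 1000 reads in each on average, and FASN, at 28, has the most clusters at low depth.

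A 3′UTR cluster was found on 119 of the genes (52.0%) in FH-DHX36-E335A, against 88.4% of all rows with 200 reads, and a 5′UTR cluster on 35 (15.3%), against 26.7%. The rule limits these. In FH-DHX36, which it did not use, 18 genes (7.86%) had a 3′UTR cluster, against a background of 47.9%.

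The coding sequences were long for the transcript. In the canonical GENCODE transcripts, matched for all 229 genes, the CDS had a median of 1989 nt against 1299 nt in the comparison rows, and the 3′UTR 777 nt against 1693.5 nt. The whole transcript had 3543 and 3641.5 nt, and the 5′UTR had 121 and 144 nt. The CDS made up a median of 69.8% of the transcript against 42.3%, and at least 80% of it in 79 genes (34.5%), against 8.58% of all rows. The 79 include the 9 mitochondrial genes, which have no annotated UTR and fall in the highest of the 5 groups below. Without them it was 70 of 220 genes (31.8%), and the median was 68.4%. Genes with CDS under 50% of the transcript were 54 (23.6%), against 60% of all rows. With all rows ordered by the CDS share of transcript length and cut into 5 groups of nearly equal size, the selected genes numbered 5, 23, 26, 53 and 122, or 0.445% of the lowest group and 10.9% of the highest. Of the 482 rows with CDS over at least 80% of the transcript, 79 (16.4%) met the rule.

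**Figure D5:**
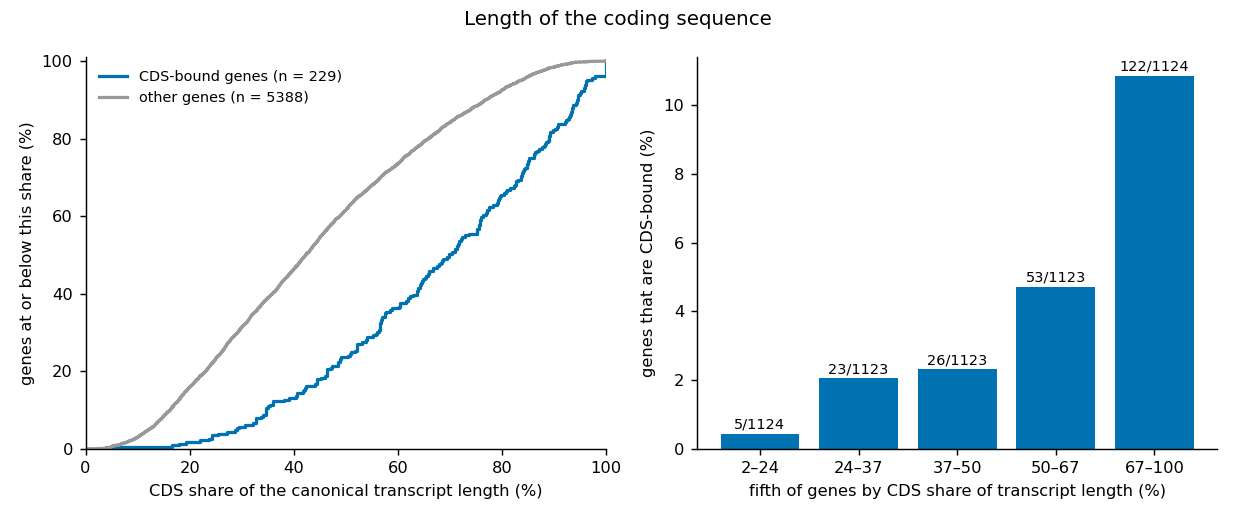
Left, cumulative share of genes (%, vertical axis) by CDS share of the canonical transcript length (%, horizontal axis) for the 229 selected genes (blue) and the 5388 comparison rows with a canonical transcript (grey). Right, percent of rows that met the rule in each of 5 groups of rows ordered by that share, with the counts above the bars, rising from 5 of 1124 to 122 of 1124.

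Reads lay in the CDS more than its length alone would give on most of the genes. The share of reads in the CDS exceeded the share of length in 184 of the 229 genes in FH-DHX36-E335A (80.3%, against 15.8% of all rows), where the rule favours it, and in 154 of 186 in FH-DHX36 (82.8%, against 27.2%). Among genes with CDS under 50% of the transcript, 36 of 45 selected genes (80%) had at least 80% CDS reads in FH-DHX36, against 9.93% (254 of 2557) of the comparison rows of that class. Where the CDS covered at least 80% of the transcript, the figures were 85% (51 of 60) and 29.2% (96 of 329). In 8 genes the CDS covered under 25% of the transcript, as it did in 22.3% of all rows. BZW1, a translation regulator, had 1722 of 1971 FH-DHX36-E335A reads and all 1675 FH-DHX36 reads in a CDS of 19.4% of its length. SLC25A15, the mitochondrial ornithine carrier, had all 235 FH-DHX36 reads in a CDS of 23.7%. Single-exon transcripts were 13 of the 229, against 2.4% of all rows, and 9 of the 13 are mitochondrial. The annotation used for lengths is a later release than the one behind the table, and the UQCRB transcript in it has a 3′UTR of 8108 nt.

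G runs were not more frequent in these coding sequences than elsewhere. The pattern of 4 runs of at least 2 G was found in 207 of the 229 (90.4%), against 85.2% of all rows, and the selected genes have longer coding sequences. Per kb of summed CDS, the selected genes had 1.93 matches and the comparison rows 2.30. Runs of at least 3 G were found in 12 genes (5.24%), against 5.27%, at 0.0247 and 0.0351 matches per kb. The coding sequences also had a lower median share of G (24.8% against 26.1%) and of C (22.1% against 24.1%), and more A (28.8% against 27.0%) and T (24.0% against 22.0%). T stands for U in the RNA, the base that 4-thiouridine replaces, and whether base composition affected the reads was not tested. Whether the higher shares of A and T relate to the A/U-rich sites that the paper describes was not tested either. The 12 genes with runs of at least 3 G were CAPNS1, KMT2B, TNKS1BP1, COIL, PDCD11, HERC2, ZNF407, NUP188, LRP3, PRX, ABCF3 and MAP3K11. As examples of the pattern, 1 match each is printed for 3 of them, chosen after their values were seen, with runs of at least 3 G in capitals.
KMT2B, chr19:36214714-36214740, plus strand, exon 8: GGGGGGcGGGagctGGGGGGccccGGG
TNKS1BP1, chr11:57076077-57076097, minus strand, exon 6: GGGagcatGGGGtGGGcGGGG
HERC2, chr15:28408287-28408307, minus strand, exon 69: GGGccGGGGacaGGGGcaGGG
KMT2B, a histone H3 lysine 4 methyltransferase, had 600 of 732 FH-DHX36-E335A reads in the CDS and 257 of 496 FH-DHX36 reads. TNKS1BP1, a tankyrase-binding protein, had all 556 and all 315 reads in the CDS. HERC2, a giant ubiquitin ligase, had 366 of 389 and 770 of 786. None of the 15 genes with most reads is among the 12.

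Families whose members were counted by symbol gave few genes each. Among C2H2 zinc finger genes, transcription factors with tandem zinc-binding repeats, 10 of the 220 that reached 200 reads met the rule (4.55%, against 4.05% of all rows). After ZNF561, those with most FH-DHX36-E335A reads were ZNF267, with 75 FH-DHX36 reads, all CDS, and ZNF224, with 561 of 592 FH-DHX36-E335A and all 30 FH-DHX36 reads in the CDS. ZNF155, ZNF224 and ZNF230 lie on chromosome 19 between 44488340 and 44613979. Zinc finger genes of this kind share similar repeats, and how reads that fit several were shared out limits their counts. DEAD and DEAH box helicases gave 3 of 28 (DDX47, DDX23 and DDX20), with 148 of 173 FH-DHX36 reads in the CDS for DDX23 and no FH-DHX36 read for DDX20. Motor proteins gave 3 of 28 as well (KIF22, DYNC2H1 and KIF20B), of which KIF22, a chromosome-arm kinesin, had all 187 FH-DHX36 reads in the CDS and the others none.

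Cytosolic ribosomal proteins gave 4 of 61, RPL3, RPLP1, RPL23A and RPL6. RPL3 had 1489 of 1530 FH-DHX36-E335A and 254 of 284 FH-DHX36 reads in the CDS, and RPLP1, a protein of the ribosomal stalk, 850 of 987 and 232 of 298. RPL23A had 801 of 937 and then no CDS read among 59 in FH-DHX36. Genes with a solute carrier symbol gave 4 of 68, led by SLC16A14, with 654 of 787 and all 225 reads in the CDS. Next came SLC25A23, with no CDS read among 37 in FH-DHX36, and SLC25A15. The last of the 4, SLC9A3R1, was counted by its symbol but encodes a regulator of a carrier and not a carrier. Histone genes gave 2 of 38, heat shock proteins and J-domain chaperones 2 of 32, DNA replication genes 2 of 22, nuclear-encoded respiratory chain and ATP synthase genes 2 of 51, and aminoacyl-tRNA synthetases 1 of 19. No gene met the rule among 29 hnRNP and SR proteins, 11 tubulins and actins, 4 elongation factors and 2 protocadherins, although TUBA1A lay just outside it. Of all rows with 200 FH-DHX36-E335A reads, 4.05% met the rule. The counts of these families are too small to tell them apart from that share.

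Families picked after the values were seen are listed as a description only. Ribosome biogenesis factors gave 10 of 33 (30.3%), led by NOP56, DDX47 and UTP3, a small-subunit processome protein with 1027 of 1149 FH-DHX36-E335A and all 219 FH-DHX36 reads in the CDS. Nucleoporins gave 4 of 15 (26.7%), NUP155, TPR, RANBP2 and NUP188, and RANBP2, the large protein of the cytoplasmic filaments, had 1018 of 1056 and all 53 reads in the CDS. RNA polymerase subunits and TFIIIC gave 6 of 24 (25%). GTF3C2, a TFIIIC subunit, had 887 of 1001 and all 1363 reads in the CDS, POLR2A, the largest subunit of RNA polymerase II, 776 of 941 and 382 of 442, and POLR1B, of RNA polymerase I, 722 of 770 and all 509. Mitochondrial ribosomal proteins gave 5 of 54 (9.26%), led by MRPL20, which had no CDS read among 424 in FH-DHX36. MRPS22 stood at 661 of 708 and all 225, and MRPL46 at 497 of 601 and all 115. Of members with at least 20 FH-DHX36 reads, 4 of 6 ribosome biogenesis factors and 2 of 3 nucleoporins reached 80% CDS there. The same held for 5 of 6 in the RNA polymerase and TFIIIC family and 3 of 4 mitochondrial ribosomal proteins. No FH-DHX36 read was listed for 4 ribosome biogenesis factors, 1 nucleoporin and 1 mitochondrial ribosomal protein.

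The normalized values in the table (NXPM) divide scaled reads by RNA abundance, which could be recovered from them in the units of the RNA-seq behind them. Median abundance was 6.34 on the selected genes and 8.05 on the comparison rows, and median NXPM in FH-DHX36-E335A was 8.76 and 10.8. NXPM exceeded 100 in 17 genes (7.42%, against 7.14% of all rows). Of these, 9 are the mitochondrial genes at an abundance of 0 and 8 are nuclear-encoded, or 3.64% of the 220 nuclear-encoded genes. Among the latter, FSBP, a row that overlaps another gene, had an NXPM of 2466 at an abundance of 0.0108, SWAP70 had an NXPM of 219 at an abundance of 1.74, TPR 180 at 2.54, DNAJC2 117 at 10.3 and ATL2 104 at 11.5. The lowest NXPM, 0.00343, belonged to RPLP1.

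A few rows are uncertain because genes overlap or resemble each other. FSBP had 254 CDS reads and lies within RAD54B, whose own row had 4611 reads, 20 of them CDS. ANKHD1-EIF4EBP3 (401 reads) and CORO7-PAM16 (270) are read-through transcripts of neighbouring genes. ANKHD1 had 1543 reads on its own row, while CORO7 and PAM16 had none. HIST4H4 had its reads in the CDS, whereas the rows of the histone H4 genes HIST1H4C and HIST1H4H had 23235 and 16016 FH-DHX36-E335A reads, all of another annotation. The DHX36 gene itself did not meet the rule. Its row had 20031 of 30909 FH-DHX36-E335A reads in the CDS and 10810 of another annotation, and 15770 of 19208 FH-DHX36 reads in the CDS. The transgenes carry this coding sequence, so reads of the induced transcript fall on the same row.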

How the data were processed

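The authors made PAR-CLIP libraries from 2 samples per line, and reads were mapped to hg19, clustered with PARalyzer in PARpipe under default settings and annotated with GENCODE 19. The deposited table gives, per gene and line, counts of clusters and of crosslinked reads, in all and per annotation category, and NXPM, a score made by the authors from crosslinked reads scaled to a total and divided by RNA abundance. The study defined high-confidence sites over both samples of a line, and whether the table is limited to these is not stated in the sources used here. No columns of other samples were present (0). Base calling used bcl2fastq 2.17.1, per the labels.

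The genes, families and comparisons were chosen with earlier results of these data known. Shares were computed per row from read counts. FH-DHX36 shares were read at 20 or more FH-DHX36 reads. Background shares for cluster numbers and for read against length shares were added after the values were seen. Line totals scaled the ratios. Abundance was recovered as reads scaled to 1000000, divided by NXPM, minus 0.001. With 1 value per line no test was run. Wilson intervals are at 95%. Lengths, G runs and sequences came from GENCODE 44 (lifted to GRCh37, the build of hg19) canonical protein-coding transcripts, with the stop codon counted in the CDS. The sequences were read from its coding sequences and checked against the genome. Classes by CDS length, FH-DHX36-E335A share and depth were set after the values were seen. Named genes were the 15 with most FH-DHX36-E335A reads, the 10 with most FH-DHX36 reads, 5 on each side of the threshold, the 5 with the lowest FH-DHX36 CDS share, and the first 3 of each family with 3 or more. Others (extremes of the ratio, cluster number, NXPM and length, genes without FH-DHX36 reads, other rows) were named after their values were seen. The selection and the pattern search were tested on simulated data. Python 3.11.15, pandas 2.3.3, NumPy 2.4.6, SciPy 1.17.1 and matplotlib 3.10.9 were used.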

Additional observations from a re-analysis of the deposited data

How the results depend on the processing

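No paired analysis was possible because the table gives 1 value per line, and for the same reason no sample could be left out in turn. Of 67 values recomputed under alternatives, 37 moved by less than their counting interval or, for the number of genes, by less than 1.5 times. The intervals count genes as if independent, and the alternatives share genes with the main set, so these labels are a description and not a test. Leaving out the DHX36 gene was among the alternatives and could not change a value, since that gene was not selected. The number of genes was 367 with a CDS share of at least 70%, 117 with 90%, 344 with 100 reads, 116 with 500 reads, 714 with the share taken over UTR and CDS reads only, and 998 with reads of another annotation counted as CDS. The last of these was chosen after the data were seen, as was leaving out the mitochondrial genes. The percent of genes with at least 80% CDS in FH-DHX36 (85.5%) was 77.7% and 91.4% at shares of 70% and 90%, 50.6% with the UTR and CDS share as the rule, and 38.5% with other annotation as CDS in the rule alone. It was 94.4% with that share taken over UTR and CDS reads of FH-DHX36, a change that can only raise or keep the share of a gene. Of summed FH-DHX36 reads, 94.2% were CDS, against 24.3% in the comparison rows. For the other alternatives to this percent, the 14.3% of the comparison rows was not recomputed, so the contrast with them is not known. Genes without FH-DHX36 reads (16.2%) were 29.1% at 100 reads and 9.48% at 500. A scaled ratio above 1 (46.3%) was found in 33.2% by CDS reads and 38.0% with other annotation as CDS. Genes above the median of all rows in reads per CDS cluster were 90.4%, against 37.4% of the comparison rows, a contrast that shares the reads of the rule. They were 94.0% at a 90% share, 81.1% and 94.8% at 100 and 500 reads, 74.6% by the UTR and CDS share and 61.7% with other annotation as CDS. A CDS of at least 80% of the transcript (34.5%) became 42.7% at a 90% share, 27.1% with the longest transcript and 25.5% with other annotation as CDS. NXPM above 100 (7.42%) became 3.22% by the UTR and CDS share, 3.64% without the mitochondrial genes, which is below the 7.12% of the comparison rows, and 3.71% with other annotation as CDS. G-run matches (90.4%, against 84.9% in the comparison rows) became 5.24% with 3-G runs, slightly below the 5.27% there. With gaps up to 12 nt they became 95.6%, near the 95.5% of the comparison rows. Without the mitochondrial genes they were 93.6%. Except where an alternative changes the definition itself, the cause was not tested.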

Other observations

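The same rule applied to the FH-DHX36 columns gave a different list. Of 2150 rows with at least 200 FH-DHX36 reads, 319 (14.8%) had at least 80% of them in the CDS, and 83 of these were among the 229 genes, 26.0% of the one list and 36.2% of the other. Only 93 of the 229 genes had 200 FH-DHX36 reads. A further 203 rows of the FH-DHX36 list had at least 200 FH-DHX36-E335A reads without meeting the rule there. Their median CDS share in FH-DHX36-E335A was 47.0%, and their summed FH-DHX36-E335A reads were 39.8% CDS, 33.4% other annotation and 22.7% 3′UTR.

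After the DHX36 gene, the rows of this kind with most FH-DHX36 reads were LSM4, PCBP2 and VIM. LSM4, a ring subunit of the complex that binds U6 RNA and decaying mRNA, had 17661 of 18367 FH-DHX36 reads in the CDS, but 2263 CDS and 2188 3′UTR reads of 4796 in FH-DHX36-E335A. PCBP2, a poly(C)-binding protein, had 8950 of 9066 and 4076 of 5875. VIM, the intermediate filament protein vimentin, had 7577 of 7676 and 1114 of 2435, with the other 1321 of another annotation. PSMA4, a proteasome subunit, had 3567 of 4157 FH-DHX36 reads in the CDS, while 13922 of its 14285 FH-DHX36-E335A reads carried another annotation.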
